A study of Mus musculus with 24 samples.

Results

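GALNT7, GMDS and SLC26A9 are 3 of the 7493 gene rows measured by RNA sequencing in tissues of mice, and they were chosen by their high FPKM in stomach in this same table, so their levels over the tissues are described here and not tested. All groups came from mice transgenic for SENCR, a human long non-coding RNA locus carried on a BAC (bacterial artificial chromosome); a group without the transgene was not analysed here. Stomach, lung, kidney, aorta, liver, brain, heart and spleen were each represented by 3 libraries, 24 in all, described as biological triplicates, with no strain, age or sex in the sources used here. Whether tissues were taken from the same animals is not stated, and p-values measure the spread between the libraries at hand. Mouse reads were placed on a human genome build, so the FPKM of a gene (its reads scaled by gene length and by the assigned reads of the library) reflect the part of it that is alike in mouse and human, and levels were compared between tissues within a gene only. Libraries held from 193902 to 642890 assigned reads, and the stomach libraries from 269952 to 332428.

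Mucus of the stomach is built on mucins, proteins whose serines and threonines carry dense O-linked sugar chains. Polypeptide GalNAc-transferases start these chains by adding N-acetylgalactosamine, and GALNT7 belongs to the members of that family that prefer peptides already carrying such a sugar. GMDS, GDP-mannose dehydratase, carries out the committed step of GDP-fucose synthesis, the donor for the fucose found at the ends of many gastric glycans. SLC26A9 is an anion transporter of the plasma membrane with chloride conductance, known from gastric and airway epithelium. GALNT7 and GMDS also act on substrates other than mucins, and the mucin genes themselves gave almost no values here, as described further on, so the data describe the 3 genes and not a mucin pathway as such.

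GALNT7 had its highest level in stomach. Its values in the 3 stomach libraries were 112, 105 and 93.6 FPKM, from 246, 261 and 189 reads. The lowest of them was 14.3 times the highest value in any of the other 21 libraries, which was 6.54 FPKM in kidney replicate 3. The stomach mean was 104 ± 9.46 FPKM (SD, n = 3), against 4.04 ± 1.90 in spleen, 4.0 ± 0.305 in lung and 3.02 ± 1.53 in brain. Aorta had 2.76 ± 0.404 FPKM, kidney 2.73 ± 3.30, liver 1.96 ± 1.29 and heart 1.51 ± 1.72. Below stomach every pair of neighbours in this order had overlapping library values, so the order of the 7 other tissues is not resolved by these libraries. The stomach mean was 25.6 times that of spleen and 68.8 times that of heart, the nearest and the farthest of the 7.

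Outside stomach GALNT7 was low but seldom absent. It was listed at 0 in 1 of the 21 libraries, heart replicate 2. Lung was the most even tissue, with 4.34, 3.77 and 3.89 FPKM from 15, 14 and 14 reads. Kidney was the least even, with 0.806 and 0.834 FPKM from 2 reads each in replicates 1 and 2 and 6.54 FPKM from 17 reads in replicate 3, so that a single library set the kidney mean. Of the 896 reads assigned to GALNT7 in all libraries, 77.7% came from stomach, which held 9.31% of all assigned reads. A neighbouring row for a divergent transcript, GALNT7-DT, had 2 reads in the stomach libraries against the 696 of GALNT7. With no strand setting stated for the counting, the pair cannot be told apart where they overlap.

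GMDS showed the same separation of stomach with another tissue behind it. The stomach libraries had 100.4, 103 and 131 FPKM, from 307, 358 and 370 reads, with a mean of 111 ± 17.0 (SD, n = 3). Kidney was next at 8.36, 6.56 and 3.85 FPKM, a mean of 6.26 ± 2.27, and no kidney library came near a stomach library. The stomach mean was 17.8 times that of kidney. Aorta followed at 3.52 ± 2.01 FPKM, lung at 2.69 ± 1.28, liver at 1.58 ± 1.49, spleen at 1.5 ± 0.858, brain at 1.38 ± 0.393 and heart at 0.891 ± 0.819. Again all neighbours below stomach overlapped. Kidney nonetheless lay apart from tissues lower in the order, since its lowest library, 3.85 FPKM, exceeded the highest of liver (2.96), spleen (2.48), brain (1.81) and heart (1.61). It did not exceed the highest of aorta (5.30) or lung (4.15). GMDS was listed at 0 in liver replicate 1 and heart replicate 3, and 82.5% of its 1254 reads came from stomach.

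SLC26A9 was nearly confined to stomach among the sampled tissues. The stomach libraries had 20.5, 28.0 and 18.4 FPKM, from 29, 45 and 24 reads, with a mean of 22.3 ± 5.05 (SD, n = 3). Lung, an organ lined by airway epithelium, was the only other tissue with reads, 1 in replicate 1 (0.448 FPKM), 2 in replicate 2 (0.832 FPKM) and none in replicate 3. Over the pooled libraries the stomach rate was 52.5 times that of lung, with an exact 95% counting interval from 17.5 to 259 that covers counting error only. The 18 libraries of the other 6 tissues had no SLC26A9 read. Set against 3 reads over the libraries of a tissue, the limit that a count of 0 allows, stomach was at least 66.4-fold higher than brain and at least 22.6-fold higher than liver, the deepest and the shallowest of the 6. Liver could thus have held up to 1.00 FPKM unseen, and brain up to 0.341.

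**Figure D1:**
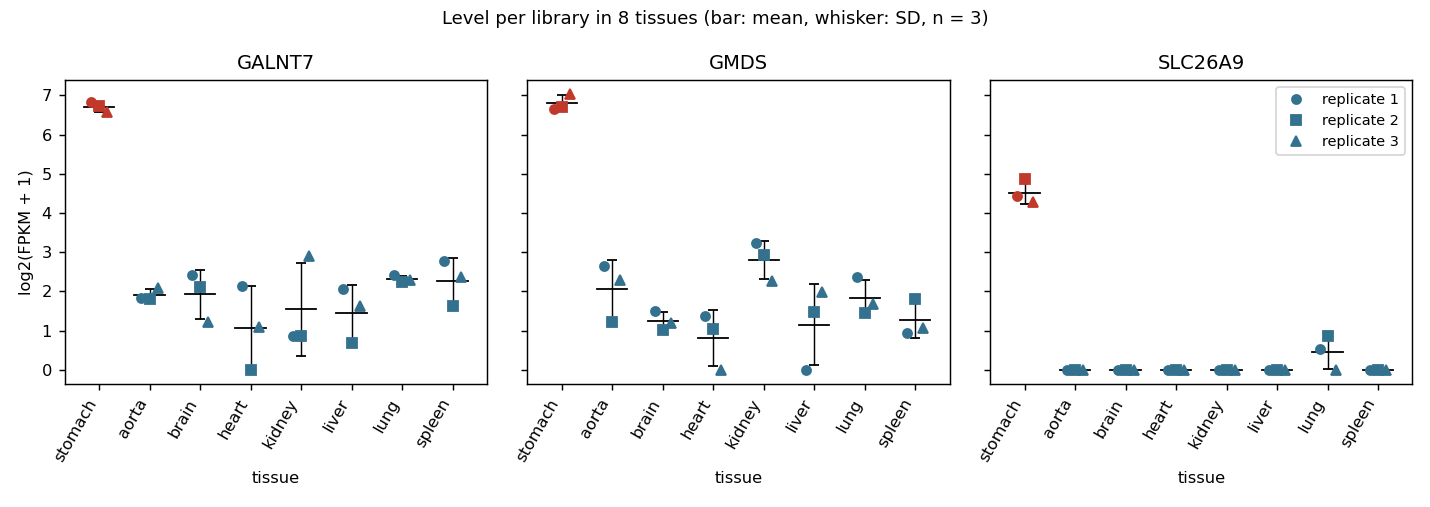
Levels of GALNT7, GMDS and SLC26A9 in each library as log2(FPKM + 1), by tissue; points are libraries, with a shape for each replicate number, horizontal bars the mean and whiskers the SD of 3 libraries. The stomach libraries lie above all 21 others in each panel, GALNT7 and GMDS are low in the other tissues, and SLC26A9 is at 0 outside stomach and lung.

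On the log2(FPKM + 1) scale the stomach mean exceeded the average of the 7 remaining tissues by 4.92 for GALNT7, 5.21 for GMDS and 4.45 for SLC26A9. These differences chose the genes and were not tested. A pseudocount of 1 compresses the difference of a gene at 0 elsewhere, so that with 0.1 in its place SLC26A9 had the largest of the 3, 7.51, against 5.52 for GALNT7 and 5.98 for GMDS. All 3 genes had stomach libraries above all 21 others. Among the 4260 genes that reached 1 FPKM in 3 or more libraries, called kept genes here, 2.11% did so and 0.141% had stomach libraries below all 21 others. That separation is part of how the 3 were chosen. GALNT7 reached 1 FPKM in 20 libraries and GMDS in 21, whereas SLC26A9 did so in the 3 stomach libraries only and was kept through them. In bulk tissue, fewer cells of a type and less RNA per cell cannot be told apart.

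Because the 3 genes share a high level in stomach, the sequences around their starts are shown side by side, since they are built differently. Each runs from 250 bases before to 50 bases after the mouse gene's start, 5′ to 3′ on the gene's strand, from RefSeq on GRCm38.p6, where all 3 symbols were found. Capitals mark matches, on either strand, to any of 6 motifs: the TATA box (TATAAA), the CCAAT box, the GC box bound by Sp1 (GGGCGG), a site of GATA factors (GATAAG), a forkhead site (TGTTTAC) and an E-box (CACGTG).
Slc26a9, chr1:131743772-131744071, + strand: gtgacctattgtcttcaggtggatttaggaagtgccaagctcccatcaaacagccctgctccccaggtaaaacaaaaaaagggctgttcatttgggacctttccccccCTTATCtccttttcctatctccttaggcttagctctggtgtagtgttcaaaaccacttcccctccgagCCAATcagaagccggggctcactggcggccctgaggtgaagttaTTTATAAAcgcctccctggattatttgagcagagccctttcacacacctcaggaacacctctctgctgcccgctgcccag
Galnt7, chr8:57653006-57653305, - strand: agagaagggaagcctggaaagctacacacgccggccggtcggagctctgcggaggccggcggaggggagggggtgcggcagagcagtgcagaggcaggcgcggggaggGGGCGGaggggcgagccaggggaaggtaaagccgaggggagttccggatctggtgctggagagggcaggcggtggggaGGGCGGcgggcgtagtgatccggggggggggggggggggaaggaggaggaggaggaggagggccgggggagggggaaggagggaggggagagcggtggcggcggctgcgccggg
Gmds, chr13:32338495-32338794, - strand: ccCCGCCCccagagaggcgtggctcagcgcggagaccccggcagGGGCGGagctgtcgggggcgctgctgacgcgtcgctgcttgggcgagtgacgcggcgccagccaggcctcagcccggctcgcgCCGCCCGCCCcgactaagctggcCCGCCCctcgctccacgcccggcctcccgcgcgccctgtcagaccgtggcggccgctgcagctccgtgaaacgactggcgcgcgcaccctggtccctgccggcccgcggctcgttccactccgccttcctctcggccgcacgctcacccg
The Galnt7 and Gmds windows are rich in G and C (75.0% and 78.0%), with 25 and 45 CpG dinucleotides, against a median of 52.7% and 7 over the 32851 windows of the table. The Slc26a9 window, at 52.0% and 5 CpG, is close to that median. Slc26a9 holds overlapping TATA box matches on opposite strands, the nearer one beginning 28 bases before the start, with CCAAT 74 and GATAAG 142 bases before it, the last on the opposite strand. Galnt7 holds GGGCGG 142 and 64 bases before its start, and Gmds has 5 such matches, 4 of them on the opposite strand, of which 2 overlap. Of all windows, 13.6% hold TATAAA, 37.4% CCAAT, 35.7% GGGCGG, 7.44% GATAAG, 3.65% TGTTTAC and 7.15% CACGTG, and the last 2 have no match in the 3 windows. A match is a description of letters and does not show that a factor binds.

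The 3 genes did not rank the stomach libraries alike. GALNT7 and SLC26A9 were lowest in replicate 3, where GMDS was highest, and SLC26A9 was highest in replicate 2. The exact 95% Poisson interval of GMDS in replicate 3, 118 to 145 FPKM, lay above that in replicate 1, 89.4 to 112, and that in replicate 2, 92.6 to 114. For GALNT7 the intervals of replicate 1 (98.8 to 127 FPKM) and replicate 3 (80.7 to 108) overlapped, as did those of SLC26A9 in replicate 2 (20.4 to 37.4) and replicate 3 (11.8 to 27.3). Markers differed between the same libraries, and not in one order. The basal keratin gene KRT14, a squamous marker, was at 35.5, 31.3 and 4.53 FPKM (17, 17 and 2 reads). KRT17, a keratin gene outside the lists, was low in replicate 3 as well, at 56.3, 57.5 and 14.7 FPKM (25, 29 and 6 reads). The other squamous list genes had too few reads to settle an order. KRT6A (1.48, 3.91 and 1.61 FPKM from 1, 3 and 1 reads), PKP1 (1.90, 4.47 and 2.06 from 3, 8 and 3) and TP63 (0.968, 2.56 and 0.525 from 2, 6 and 1) were highest in replicate 2. ATP4A, the parietal cell proton pump subunit, was also highest there, at 0.918, 4.85 and 1.99 FPKM (1, 6 and 2 reads). ESRRG, a nuclear receptor of parietal cells, was nearly level at 95.3, 97.6 and 102 FPKM. The part of tissue sampling in the spread of the 3 genes was not tested.

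**Figure D2:**
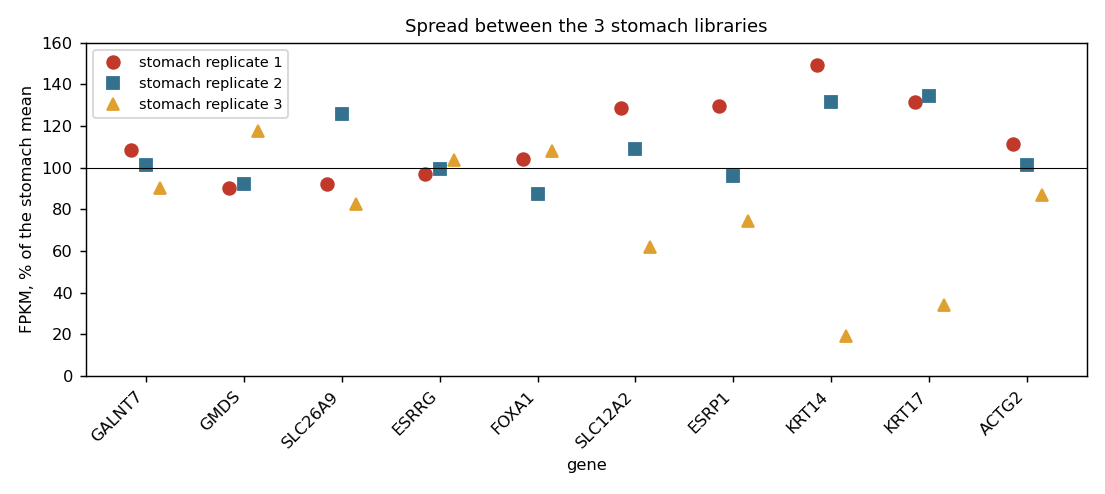
FPKM of each gene in the 3 stomach libraries as a percentage of the gene's stomach mean, with a symbol for each library. GALNT7 and GMDS stay between 90.0% and 118% of their mean, SLC26A9 between 82.5% and 126%, and the keratin genes KRT14 and KRT17 are low in replicate 3 (19.1% and 34.2%).

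The other genes of O-glycosylation were then compared between stomach and the mean of the other 7 tissues, a test that did not enter the choice of the 3. Genes were called when limma gave an adjusted p under 0.05 over all kept genes and the log2(FPKM + 1) means lay 1 or more apart. Of all kept genes 7.65% were called higher in stomach and 5.87% lower. Of 37 other genes in the table from 4 lists (GalNAc-transferases, core and extension enzymes, GDP-fucose and fucosyltransferases, UDP-sugar supply), 14 were kept, 3 were higher and 1 lower, with a median difference of -0.02 beside -0.08 over all kept genes. None of the 14 was higher in stomach than in each other tissue, as 1.20% of kept genes were.

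Among the chain-starting enzymes, GALNT3 was the one called. It was at 4.64, 6.13 and 1.89 FPKM in stomach, from 23 reads, against 2.19 ± 1.03 in kidney, 1.30 ± 0.823 in lung and 0.781 ± 0.733 in spleen, and it was listed at 0 in the other 4 tissues (difference 1.79 ± 0.26, SE; limma adjusted p = 2.43e-05). Its stomach and kidney libraries overlapped. GALNT1, a widely expressed member, had 85.5, 88.0 and 67.5 FPKM in stomach and did not pass the test (-0.22, limma adjusted p = 0.102); its highest level was in kidney, 238 ± 13.5 FPKM (SD, n = 3), followed by spleen with 141 ± 15.7. Other members had their reads elsewhere. GALNT13, known from neurons, was at 5.99 ± 1.38 FPKM in brain with no read in stomach, and GALNT18 was at 2.74 ± 0.101 FPKM in lung with no read in stomach. GALNT10 was highest in spleen, at 2.10 ± 1.49 FPKM, and had 1 read in stomach. Of the 6 kept family members, GALNT7 and, at a low level, GALNT3 had their highest tissue mean in stomach.

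Downstream of the first sugar the values were few. C1GALT1C1, the chaperone needed for the enzyme that builds the core 1 chain, was at 54.8, 48.3 and 63.5 FPKM in stomach and was called higher (1.17 ± 0.30, SE; limma adjusted p = 0.00574), with liver (51.7 ± 5.34) and kidney (49.5 ± 13.9) close behind and overlapping. ST6GALNAC6, a sialyltransferase, had no read in stomach and was called lower (-1.46, limma adjusted p = 0.00644), but kidney had no read of it either. CMAS, which activates sialic acid, was called higher (17.6, 32.7 and 23.3 FPKM; 1.79 ± 0.57, SE; limma adjusted p = 0.0228), while spleen had a higher mean of 29.99 ± 19.8; the call ended without stomach replicate 2 (adjusted p = 0.119) or replicate 3 (0.0766). Of the fucose genes other than GMDS, FUT8, which adds core fucose to N-glycans, was the one kept, and it did not pass (1.96 ± 0.644 FPKM in stomach; 0.50, limma adjusted p = 0.166). GFUS, the enzyme that follows GMDS in GDP-fucose synthesis, was listed at 0 in stomach and had a value in 1 liver library only, so the level of GMDS could not be set beside that of its partner.

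Mucin and mucus genes could not be followed. Of 25 such genes looked up, 3 were in the table and none was kept. AGR2, a disulfide isomerase of mucin-producing cells, was listed above 0 in stomach replicate 1 alone (2.01 FPKM). ERN2, the stress sensor of mucous cells, was at 0.890, 0.783 and 0 FPKM in stomach and at 0 in the other 21 libraries. Their summed level with CREB3L1 ran from 0 to 4.0 FPKM in stomach and from 0 to 0.777 elsewhere.

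**Figure D3:**
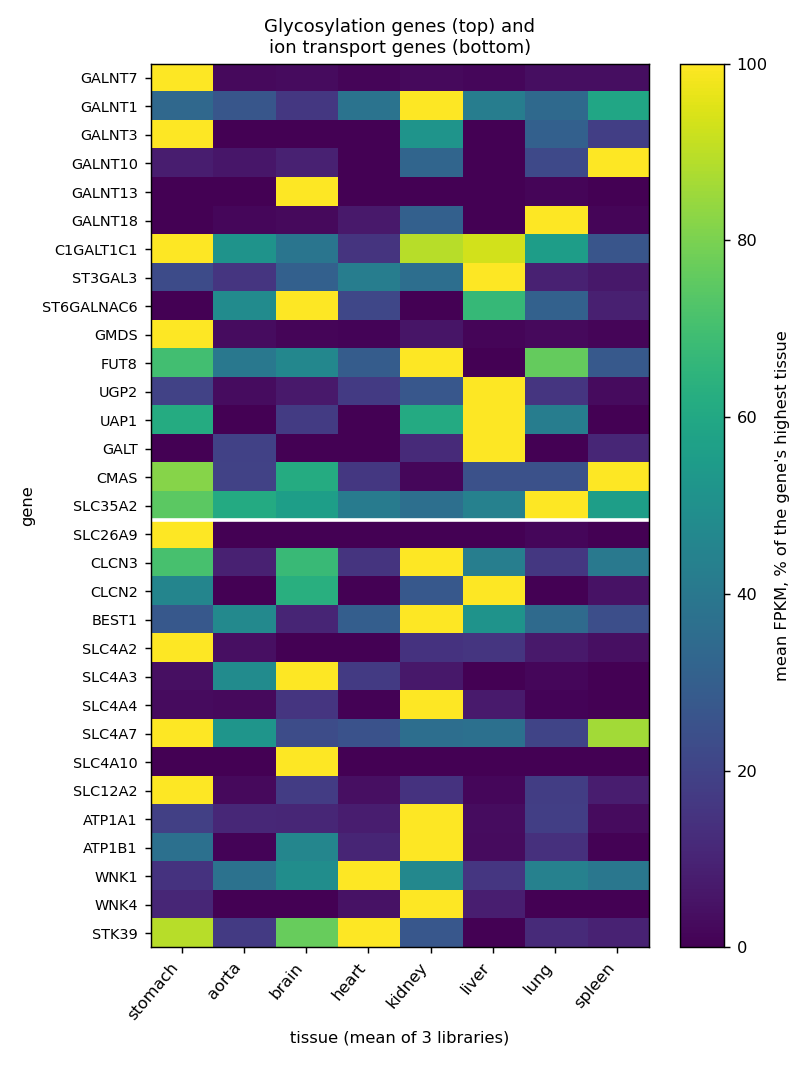
Mean FPKM of 3 libraries in each tissue, as a percentage of the gene's highest tissue, for kept genes of glycosylation (above the white line) and of anion and ion transport (below it). GALNT7, GMDS and SLC26A9 are dark outside stomach, while most other glycosylation genes peak in kidney, liver, spleen, lung or brain.

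SLC26A9 was then set beside its own family and the ion transport genes of the stomach. SLC26A2, a sulfate transporter, was the other member of the SLC26 family in the table, at 0.424, 0.747 and 1.38 FPKM in stomach and at most 0.645 in any other library, and it was not kept. Of 20 measured genes of gastric ion transport, 15 were kept, of which 7 were higher in stomach and 1 lower, with a median difference of 0.35. Over all kept genes 7.65% were higher and 5.87% lower, with a median of -0.08. Of the 7, 3 were higher than in each other tissue, as 1.20% of kept genes were, SLC12A2 and SLC4A2 among the 3. WNK1, a kinase that controls chloride cotransport, was the one called lower (3.47 ± 1.80 FPKM, SD, n = 3; -1.36, limma adjusted p = 0.000111). Liver was at a similar level, 3.73 ± 1.69 FPKM, and its libraries overlapped those of stomach.

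SLC12A2, the sodium-potassium-chloride cotransporter that loads cells with chloride across the basolateral membrane, was at 50.9, 43.1 and 24.5 FPKM in stomach against at most 8.99 elsewhere (difference 3.33 ± 0.29, SE; limma adjusted p = 4.40e-08). Replicate 3 was the lowest stomach library for SLC12A2, as for SLC26A9. SLC4A2, the chloride-bicarbonate exchanger of the parietal cell's basolateral side, was at 5.33, 2.60 and 2.57 FPKM from 18 reads, against at most 1.61 (1.88 ± 0.25, SE; limma adjusted p = 9.31e-06). The stomach libraries of both genes, like those of SLC26A9, lay above all others, as they did for 2.11% of kept genes. SLC4A2, like SLC26A9, passed the filter only with its stomach libraries, so its call and its separation are not independent of the filter.

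The remaining ion transport calls were shared with other tissues. ATP1B1, the sodium pump's beta subunit, was called higher (2849 ± 395 FPKM; 2.36, limma adjusted p = 1.11e-06) but lay below kidney at 7745 ± 408 and brain at 3549 ± 432. STK39, the kinase that activates SLC12A2, was at 7.54 ± 1.58 FPKM in stomach (1.55, limma adjusted p = 0.000325), with heart at 8.44 ± 0.716. SLC4A7, a sodium-bicarbonate cotransporter, was at 8.11, 8.84 and 8.38 FPKM (1.27, limma adjusted p = 0.00333), with spleen at 7.27 ± 3.40, and CLCN3, an endosomal chloride-proton exchanger, at 50.2 ± 10.3 FPKM (1.18, limma adjusted p = 0.00306), with kidney at 70.7 ± 5.41. The bicarbonate cotransporter SLC4A4 did not pass (-0.60, limma adjusted p = 0.0775) and was highest in kidney, at 63.0 ± 4.43 FPKM.

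Markers of the tissue's cell types were read to check the label. Of 11 measured genes of the gastric list, 7 were kept, and all 7 were higher in stomach, 4 of them than in each other tissue. Of all kept genes, 7.65% were higher and 1.20% were higher than in each other tissue. The 7 and the 4 both include BARX1, which is known from the mesenchyme, not the epithelium, and was kept through its stomach libraries only. Among the genes not kept, HNF4A had no read in stomach and GATA4 had 1, and each was at 0 in 23 of the 24 libraries. FOXA1, an endoderm transcription factor, was at 160.3 ± 17.7 FPKM against at most 60.1 elsewhere, and ESRRG at 98.4 ± 3.49 against at most 36.9. Defining genes of gland cells had few reads and were not kept. ATP4A had 9 reads over the 3 stomach libraries, and the chief cell zymogen gene PGC had 1, in replicate 2. Both were at 0 in the other 21 libraries. Of 6 measured squamous genes, 3 were kept and called higher (KRT14, KRT6A, PKP1). Each of the 3 passed the filter only through its stomach libraries, so these calls are not independent support for the label. KRT5 and PAX9 of the same list had no read in stomach, but each was at 0 in 23 of the 24 libraries. Of 11 measured general epithelial genes, 3 were kept. The splicing factor ESRP1 (72.2 ± 20.2 FPKM) and GRHL2 (6.38 ± 0.57) were higher, and KRT8 did not pass (0.46, limma adjusted p = 0.497). EPCAM, KRT18, KRT19, GRHL1 and ST14 were listed at 0 in stomach. These genes were almost unread in every tissue, at 0 in 23 of the 24 libraries (22 for KRT18). Their zeros therefore do not set stomach apart. Of 7 kept smooth muscle genes, ACTG2 (189.8 ± 23.3 FPKM), TPM1 and DES were higher and ACTA2, MYH11, SMTN and MYLK were not called. ACTA2 was at 2.98 FPKM in stomach against 48.3 in aorta, and SMTN at 15.8 against 104. Keratin and actin genes have near-identical relatives, so their reads are uncertain. The summed squamous list ran from 8.72 to 42.2 FPKM in stomach and from 0 to 4.14 elsewhere. The summed smooth muscle list ran from 1233 to 1605 and from 32.1 to 21092, but TPM1, which is also a cardiac gene, made up most of it (1225 FPKM in stomach and 19876 in heart). The kept pancreas gene, NEUROD1, did not pass (-0.23, limma adjusted p = 0.553), and of the immune genes IKZF1 and SPI1 were lower. IKZF1 had means of 30.2 FPKM in spleen and 2.82 in lung, and at most 0.616 in any other tissue. SPI1, at 9.81 FPKM in stomach, lay below spleen (163) and lung (106) but above brain (2.15) and kidney (8.59). LCP1 leaned higher in stomach (0.95, limma adjusted p = 0.0238), just short of the difference needed. It was called higher in some alternatives, among them voom (1.63) and the fit without stomach replicate 2 (1.39, adjusted p = 0.00361). Which of these cells held the GALNT7, GMDS and SLC26A9 reads was not tested.

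**Figure D4:**
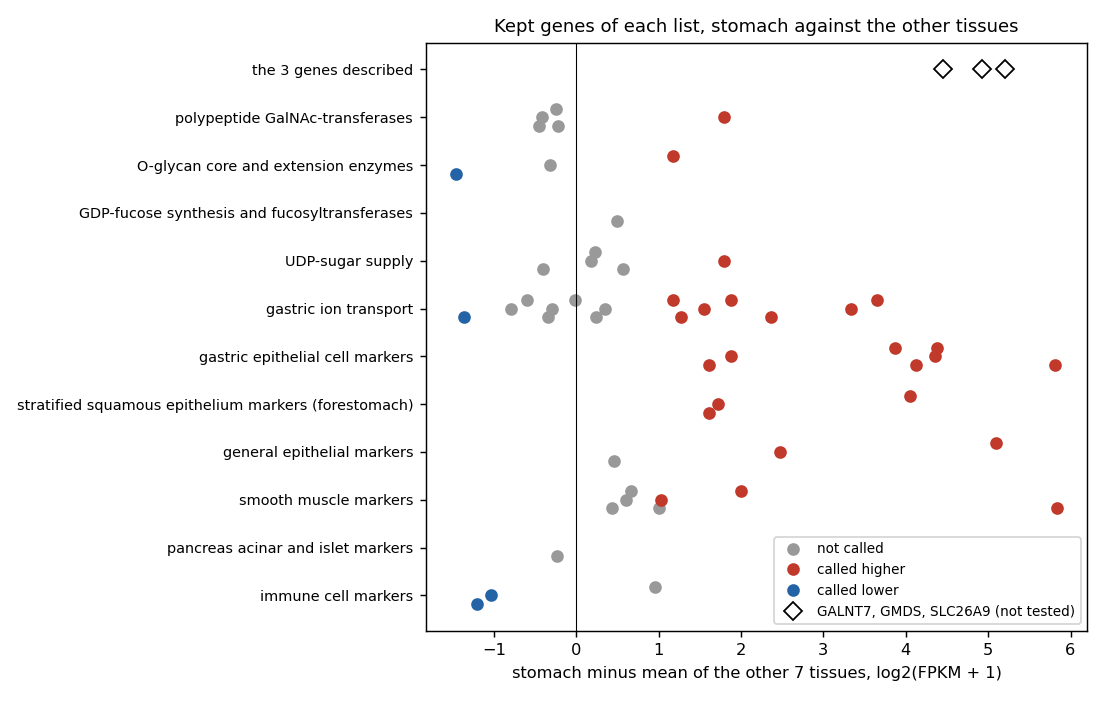
Stomach mean minus the average of the 7 remaining tissues, in log2(FPKM + 1), for the kept genes of each list; filled points are genes called higher, lower or not called, and open diamonds GALNT7, GMDS and SLC26A9, which were not tested. The diamonds lie between 4.45 and 5.21, beyond every kept glycosylation gene (at most 1.79) and to the right of the ion transport genes.

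Genes with a profile like that of the 3 were ranked by Pearson's r on log2(FPKM + 1) over the 24 libraries, as a description, since libraries of a tissue are alike and 1 tissue carries most of the spread. GALNT7 and SLC26A9 correlated at r = 0.924, GMDS and SLC26A9 at 0.906 and GALNT7 and GMDS at 0.833. Among the 5 genes nearest to each, 3 were common to all: PLEK2 (r = 0.920 with GALNT7, 0.913 with GMDS, 0.985 with SLC26A9), PITX1 (0.919, 0.903, 0.972) and BARX1 (0.904, 0.899, 0.978). BARX1, a homeobox factor of the stomach mesenchyme, was at 9.05, 35.8 and 22.1 FPKM in stomach and at 0 in all other libraries, and PITX1, a homeobox factor, at 38.0, 38.6 and 34.9 against at most 1.85. PLEK2 stood at 2.26, 1.99 and 2.45 FPKM, steps of 1 read per library, and at 0 in all other libraries, so its rank rests on very little. PLEK2 and BARX1 were kept through their stomach libraries only. Their high r with genes chosen for stomach is therefore not independent of the filter and the choice. SIX2 (r = 0.895) and KRT17 (0.890) completed the 5 for GALNT7, ZBTB7C (0.905) and GRHL2 (0.883) those for GMDS, and ZBTB7C (0.957) and KRT17 (0.936) those for SLC26A9. Of the list genes, KRT14 was among the nearest to GALNT7 (0.863) and SLC26A9 (0.910).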

How the data were processed

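RNA was sequenced from 8 tissues, 3 libraries each. The authors deposited FPKM per gene and library; per the submitters' processing notes fastp, HISAT2 and HTSeq were used on GRCh38.p13, a human build, with no annotation named. Of the 7493 symbols, 91.4% matched a mouse symbol. FPKM steps gave whole read numbers (relative tolerance 2e-08) and depths from 193902 to 642890 assigned reads per library, 269952 to 332428 in stomach; summed reads were 99.91% to 100% of these depths. The recovery was tested on simulated data; genes with reads in few libraries can be under-counted by a common factor. FPKM imply a length of 7481 bases for GALNT7, 10455 for GMDS and 4840 for SLC26A9.

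Values were analysed as log2(FPKM + 1), which understates changes of low genes. The 4260 genes reaching 1 FPKM in 3 or more libraries were kept. A model with 8 tissue means was fitted by limma 3.58.1 in R 4.3.3, with moderated variances that follow the level (trend) and Benjamini-Hochberg adjustment, and was tested on simulated data. The 3 genes, the 13 lists (281 symbols, 106 in the table with the 3) and the tests were chosen with earlier results of these data known. Named are list genes called in stomach (up to 6 per list and direction), the 2 most abundant per list, and the 5 genes and 3 list genes nearest to each of the 3; CLCN3, SLC4A4, GALNT10, GALNT13, GALNT18, GFUS, SLC26A2, the mucus genes, ATP4A, PGC, TP63 and the uncalled epithelial and muscle genes were added as context after their values were seen. Some genes that this rule names are not reported here. Poisson, binomial and 3-read limits cover counting error only. Alternatives were pseudocounts, filters, scalings, voom, a replicate block, fits of 6 libraries and each library left out. Python 3.11.15, numpy 2.4.6, pandas 2.3.3, scipy 1.17.1 and matplotlib 3.10.9 were used.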

Additional observations from a re-analysis of the deposited data

How the results depend on the processing

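The stomach differences of GALNT7, GMDS and SLC26A9 kept their direction with other pseudocounts and scalings and with each library left out; they were not computed under the filters, voom, the replicate block or the fits of 6 libraries. With a pseudocount of 0.1 they were 5.52, 5.98 and 7.51, with 5 they were 3.82, 3.99 and 2.42, and under TPM scaling 5.19, 5.56 and 5.90; GALNT7 was 4.77 under median-ratio scaling. With 1 library left out they ran from 4.84 to 5.02, from 5.09 to 5.28 and from 4.28 to 4.57. TPM scaling moved the median difference of all kept genes to -0.20 from -0.08. Calls numbered 326 higher and 250 lower, and a pseudocount of 5 gave 163 and 75, with 15 list genes higher (25 before) and 0 lower (4 before). Genes higher than in every other tissue numbered 51, or 32 in fits of 6 libraries. Of the 5 genes most like each, 3 remained for GALNT7 and 2 for GMDS with a pseudocount of 0.1, 3 for GALNT7 with 5, 3 for each of GALNT7, GMDS and SLC26A9 under TPM scaling, and 3 for SLC26A9 under quantile normalization. The cause was not tested.

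With a pseudocount of 5 the differences of GALNT3 (0.71), SLC4A2 (0.69), SLC4A7 (0.73), STK39 (0.75), WNK1 (-0.87) and ST6GALNAC6 (-0.53) fell short of 1, while their adjusted p stayed under 0.05; GATA6, PKP1, KRT6A, IKZF1 and SPI1 also lost their calls there. CMAS was not called with a pseudocount of 0.1 (limma adjusted p = 0.0883) or under TPM scaling (0.0761). SPI1, DES and LCP1 lay near the threshold and crossed it in several settings, among them without stomach replicate 2 (adjusted p = 0.141, 0.112 and 0.00361). A fit with a replicate block gave 329 higher and 249 lower, and changed no call of a named gene. Same-numbered libraries of different tissues correlated in their deviations over 0.1 in 2 of 84 pairs (mean 0.034). Differently numbered libraries did so in 0 of 168 pairs (mean -0.017). Same-numbered pairs were thus slightly higher, but the labels do not say whether a number marks an animal. The main fit did not pair the numbers. Among the 3 genes SLC26A9 had the fewest stomach reads, 98, and several list genes rest on fewer, such as GALNT3 (23), SLC4A2 (18), PKP1 (14) and KRT6A (5).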
